A study of Mus musculus with 12 samples.

Results

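RFP+ macrophages sorted from B16F10 tumours were compared with RFP+ macrophages sorted from MC38 tumours. The comparison used the 6 libraries whose sample names mark the RFP+ gate, 3 for each tumour, of 12 libraries in the series. The other 6 are the RFP- cells of the same tumours. B16F10 is a mouse melanoma line that makes pigment, and MC38 is a mouse colon carcinoma line. All hosts were Arg1-RFP mice, in which a red fluorescent protein reports the arginase gene Arg1, so every group carried the reporter. The 4 groups were RFP+ cells in B16F10 tumours, RFP- cells in B16F10 tumours, RFP+ cells in MC38 tumours and RFP- cells in MC38 tumours. Cells in each group had been sorted for CD45, CD11b, F4/80 and MHC class II and against CD90.2, B220, NK1.1, Ly6G and Ly6C. The sources used here give no strain, age, sex or time after tumour injection. They do not say which mouse each library came from, so p-values measure the spread between these libraries only.

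Tumour-associated macrophages derive largely from blood monocytes and take on different programmes with the signals in a tumour. Interferons raise antigen presentation, guanylate-binding proteins and the chemokines that draw T cells. Hypoxia, lactate and type 2 cytokines raise Arg1, which breaks down arginine. Macrophages can also secrete Spp1 (osteopontin) and Pf4 (platelet factor 4), the chemokine named in the study's title. A sorted population can also hold RNA of tumour cells, attached, engulfed or sorted with it, and in melanoma this can be read from the pigment genes.

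Values are FPKM, a fragment count divided by the length of the transcript and the size of the library. Library values are given in the order 12, 11 and 3 for B16F10 and 1, 2 and 3 for MC38, the numbers in the sample names. Differences are B16F10 minus MC38 on the log2(FPKM + 1) scale with their standard error, which understates changes of low genes, and a gene was called at a limma adjusted p under 0.05. The files held 24346 gene symbols, and 11263 reached 1 FPKM in at least 3 of the 6 libraries. On the log2 scale, libraries correlated across genes at 0.973 to 0.984 within B16F10, 0.982 to 0.987 within MC38 and 0.793 to 0.834 between the tumours. Read totals are unknown, but the FPKM worth of a single read was 2.55 to 2.62 times that of MC38 library 2 in the B16F10 libraries and 0.877 to 0.993 times in the MC38 libraries, so the B16F10 libraries were shallower. Library 11 stood apart within B16F10. It had Xist at 1.17 FPKM and the Y-linked gene Eif2s3y at 0.0687, whereas libraries 12 and 3 had Eif2s3y at 13.6 and 11.5 and Xist at 0.00293 and 0. In MC38, libraries 1 and 2 had Xist at 4.59 and 4.16 FPKM and library 3 had Eif2s3y at 39.8, so each tumour held libraries of both kinds. A term for this split left 4540 genes higher and 2622 lower.

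Of the 11263 genes, 4579 (40.7%) were called higher in B16F10 RFP+ cells and 2575 (22.9%) lower, 63.5% in all, with a median difference over all genes of 0.23. The groups of 3 did not overlap for 69.4% of genes, with B16F10 above for 44.3% and below for 25.1%. A difference between these groups is therefore the usual case, and each list below is read against these shares. A second reading set each library to the level of 20 macrophage core genes, pan-macrophage and leukocyte genes such as Csf1r, Adgre1 and Laptm5. These were lower in B16F10 by a mean of 1.87 on the log2 scale. After division by each library's core level, 9717 genes (86.3%) were higher and 416 (3.69%) lower, and the median over all genes was 1.84. A gene that was lower as deposited can thus stand at or above 0 on the second reading, and for genes named as lower both values are given where the direction or the call differs. Below, "relative to the core" means the second reading, in which the core list itself is near 0 by construction.

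Pigment cell genes gave the largest differences of all. Dct, which acts in eumelanin synthesis, read 2079, 2881 and 2107 FPKM in B16F10 RFP+ libraries and 1.39, 2.33 and 2.07 in MC38. Its difference was 9.65 ± 0.17 (limma adjusted p = 9.25e-09). The melanosome matrix gene Pmel read 1622, 2279.7 and 1898 against 0.886, 2.38 and 1.5 FPKM, a difference of 9.57 ± 0.21. Tyrp1 (9.60 ± 0.18) and Mlana (9.14 ± 0.15) were close to these. Tyr, the rate-limiting enzyme of melanin synthesis, read 149, 253 and 194 against 0.97, 1.01 and 0.749 FPKM, a difference of 6.68 ± 0.19. For each of these 5 genes library 11 was the highest and the groups did not overlap. In all, 14 of 15 pigment cell genes were higher, with a median of 6.19. The exception was the receptor gene Kit at 1.53, 2.51 and 0.631 against 1, 0.435 and 0.965 FPKM. Other genes among the 12 largest positive differences were the pigment transporters Slc45a2 (8.14) and Slc24a5 (7.21), the prostaglandin D2 synthase gene Ptgds (9.10), Car14 (7.09), Syt4 (6.95), Fkbp6 (6.89) and Tinagl1 (6.87).

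MITF, the master regulator of pigment cells, binds the M-box. The letters TCATGTG were searched on both strands in the 200 bases before the start of RefSeq genes (GRCm38.p6). They were present in 6 of the 10 pigment cell genes that have a promoter in the table (60%) and in 2.94% of all 27025 genes. The 3 melanin synthesis enzymes are shown, each of which held a match. Capitals mark the match.
Tyr, chr7:87493513-87493712, minus strand: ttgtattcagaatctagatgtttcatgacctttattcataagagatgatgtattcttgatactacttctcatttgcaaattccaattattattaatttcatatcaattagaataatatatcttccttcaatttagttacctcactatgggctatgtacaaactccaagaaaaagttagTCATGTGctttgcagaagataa
Tyrp1, chr4:80834013-80834212, plus strand: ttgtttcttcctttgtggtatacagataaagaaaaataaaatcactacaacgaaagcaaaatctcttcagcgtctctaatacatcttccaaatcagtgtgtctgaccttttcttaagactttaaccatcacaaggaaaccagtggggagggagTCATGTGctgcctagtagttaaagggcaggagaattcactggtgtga
Dct, chr14:118052247-118052446, minus strand: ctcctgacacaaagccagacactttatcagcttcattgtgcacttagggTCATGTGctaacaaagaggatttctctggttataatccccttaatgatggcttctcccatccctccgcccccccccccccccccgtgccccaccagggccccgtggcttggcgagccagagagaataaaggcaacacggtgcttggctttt
The match lies 22 bases before the start in Tyr, 47 in Tyrp1 and 151 in Dct, and a match is a description of the letters only. Mitf itself read 38.4, 72.9 and 47 against 9.01, 8.04 and 5.49 FPKM (2.63 ± 0.25).

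The 15 pigment cell genes summed to 8561 to 11199 FPKM in the B16F10 RFP+ libraries, 1.37% to 1.78% of all FPKM, and to 16.3 to 24.7 FPKM in MC38. The RFP- libraries held similar sums, 8566 to 11169 and 13 to 17.6 FPKM. All 20 macrophage core genes moved the other way. Their geometric mean was 205, 125 and 189 FPKM in B16F10 RFP+ libraries 12, 11 and 3 and 604 to 652 FPKM in MC38. Library 11 thus held the highest pigment sum and the lowest core level, and 19 of the 20 core genes were lowest there among the B16F10 libraries. Over all genes tested, library 11 was the lowest of the 3 for 36.8% and the highest for 38.6%, the shares against which its counts below are read. In these bulk samples fewer macrophages and less RNA per macrophage cannot be told apart, and the part of tumour RNA in the results below was not tested.

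**Figure D1:**
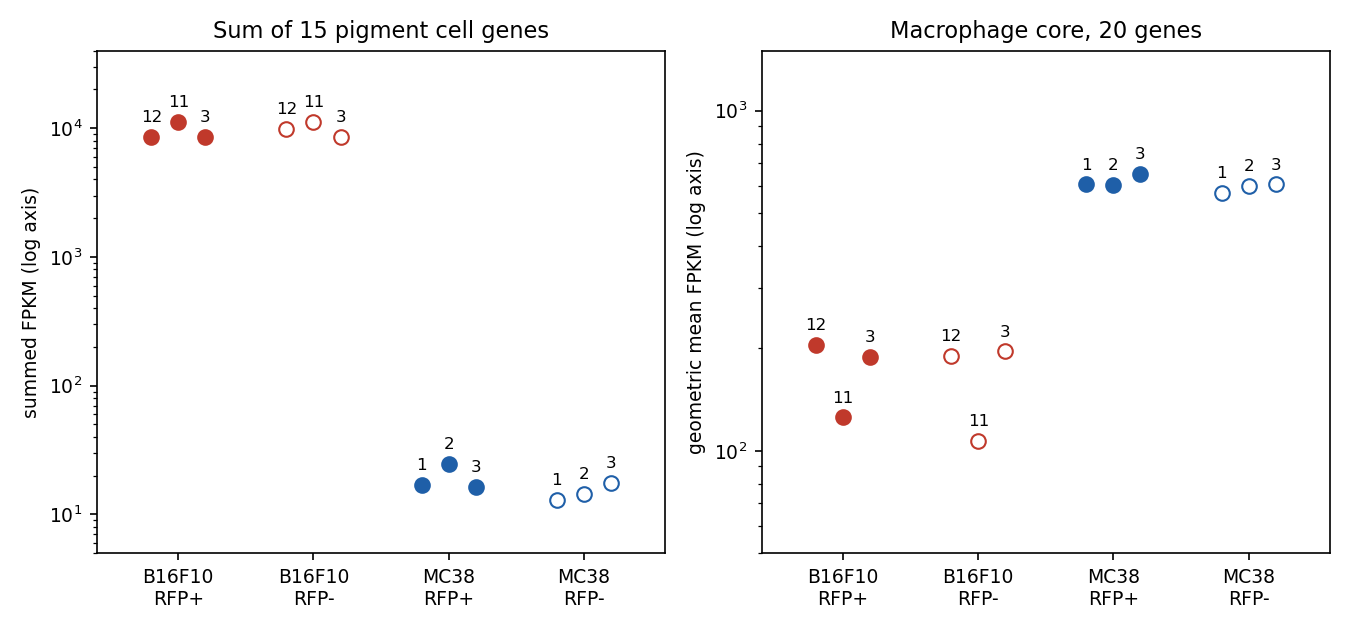
Summed FPKM of 15 pigment cell genes (left) and geometric mean FPKM of 20 macrophage core genes (right) in each of the 12 libraries, both on log axes. Filled points are RFP+ and open points RFP- libraries, with the library number above each; every B16F10 library lies above every MC38 library for pigment genes and below every MC38 library for the core.

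Within the core list the differences ran from -2.87 to -0.58, with a median of -1.87 and 20 of 20 genes lower (22.9% of all genes). Csf1r, the receptor for the main macrophage growth factor, read 146, 74.3 and 129.9 FPKM in B16F10 and 537, 579 and 606 in MC38 (-2.35 ± 0.22, limma adjusted p = 3.08e-05) and was not called relative to the core (-0.49, limma adjusted p = 0.0505). Adgre1, which encodes the sorted antigen F4/80, read 138, 56.3 and 78.8 against 377, 326 and 474 FPKM (-2.18 ± 0.29, and -0.32 relative to the core, limma adjusted p = 0.235). The CD45 gene Ptprc differed most, at 28.8, 20.7 and 28.1 against 199, 183 and 197 FPKM (-2.87 ± 0.13). Cd68, a lysosomal membrane gene, differed least, at 1112, 620.4 and 1107 against 1356, 1334 and 1423 FPKM (-0.58 ± 0.21, limma adjusted p = 0.035). The groups did not overlap for any of the 20. The core did not move as a block: relative to its own mean, Ptprc (-1.03), Aif1 (-0.99), Cybb (-0.87) and Ctss (-0.79) were lower and Cd68 (1.28), Sirpa (1.09), C5ar1 (0.94) and Fcgr3 (0.54) higher.

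The 12 largest negative differences included immune genes, matrix genes and others. Which cells these transcripts came from was not tested. Cd34, a sialomucin of progenitors and vessels, read 0.248, 0 and 0.585 FPKM in B16F10 and 70.0, 51.6 and 51.3 in MC38 (-5.53 ± 0.22). The matrix genes Dcn (-5.22), Htra1 (-4.84) and Col3a1 (-4.35), the homeobox gene Rhox5 (-4.70) and Rrad (-4.46) were at 2.33 FPKM or less in every B16F10 RFP+ library. Dcn and Col3a1 were listed at 0 in some of them, which in these files can be a failed estimate. The size of such differences rests on the pseudocount: Dcn stood at -8.16 with a pseudocount of 0.1 and at -3.09 with 5, and Col3a1 at -7.58 and -2.30. The interferon-linked transcript AW112010 read 90.6, 50.7 and 69.7 against 2009.8, 2015 and 1642 FPKM (-4.76 ± 0.19). Ly6a, which encodes Sca-1, read 47.1, 50.3 and 73.7 against 1076, 1163 and 1577 FPKM (-4.46 ± 0.19). Gbp2b (-4.57), Ccl5 (-4.46), Cfb (-4.44) and H2-Q8 (-4.37) complete the set. H2-Q8 has near-identical neighbours, so its share of reads is uncertain. All 12 were also lower relative to the core, from -4.45 for Cd34 to -2.61 for Ly6a.

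MHC class II genes were lower in B16F10 RFP+ cells beyond the core offset. H2-Ab1 (chr17:34257689-34269419), a class II beta chain, read 584, 792 and 806 FPKM in B16F10 and 12745, 10953 and 9683 in MC38. The groups lay far apart, and the difference was -3.94 ± 0.15 (limma adjusted p = 4.48e-07). As a ratio to the core level of the same library it was 2.85, 6.32 and 4.26 against 21.0, 18.1 and 14.8. Cd74, the invariant chain, read 1297, 1495 and 1923 against 21840.2, 18935 and 19202 FPKM (-3.68 ± 0.15). Of the 10 genes tested, 10 were lower with a median of -2.95. Relative to the core, 8 were lower (3.69% of all genes) with a median of -1.33, and the same 2 counts held without library 11. Ciita, the transactivator that class II genes depend on, read 0.552, 1.3 and 0.383 against 9.29, 9.97 and 4.61 FPKM and was lower on both scales (-2.33 ± 0.30, and -1.07 relative to the core). H2-Oa was the least changed (-1.16, and -0.02 relative to the core). The class II genes did not follow the core within B16F10, since 2 of the 10 were lowest in library 11 and 2 highest.

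Class II promoters share a conserved block that ends in a Y box, bound by NF-Y. The letters GATTGG were present on either strand in the 200 bases before the start of 8 of the 8 class II genes with a RefSeq promoter and of 14.8% of all genes. H2-Aa (-3.79 ± 0.16) and H2-Eb1 (-3.84 ± 0.20) are shown because they were among the 4 most reduced members, with the match in capitals.
H2-Aa, chr17:34287824-34288023, minus strand: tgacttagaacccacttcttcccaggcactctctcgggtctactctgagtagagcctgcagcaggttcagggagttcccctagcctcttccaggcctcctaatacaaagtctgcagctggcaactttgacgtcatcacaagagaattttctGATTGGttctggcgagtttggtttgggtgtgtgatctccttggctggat
H2-Eb1, chr17:34305667-34305866, plus strand: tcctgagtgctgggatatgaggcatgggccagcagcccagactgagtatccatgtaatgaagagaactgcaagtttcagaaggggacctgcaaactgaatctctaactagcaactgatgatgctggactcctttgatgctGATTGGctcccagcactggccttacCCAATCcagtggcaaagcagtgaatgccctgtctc

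MHC class I genes were lower as deposited, and less uniformly so relative to the core. Of 17 genes, 15 were lower with a median of -2.16. Relative to the core 7 were lower and 3 higher (3.69% and 86.3% of all genes), with a median of -0.37. Without library 11 the count of genes lower relative to the core was 11. The classical gene H2-K1 read 284, 215 and 273 against 1451, 1456 and 1535 FPKM (-2.53 ± 0.12, and -0.66 relative to the core). B2m, the light chain, was lower by -1.75 ± 0.11 as deposited and at 0.12 relative to the core (limma adjusted p = 0.699). H2-Q7 (-3.40), H2-Q6 (-3.18) and H2-Q4 (-3.17) differed most, but these near-identical genes may share reads. The peptide transporter gene Tap2 followed (-2.67, and -0.85 relative to the core). The chaperones Calr (0.23) and Pdia3 (-0.21), which all cells use, were not called as deposited. Relative to the core they were higher (2.09 and 1.66), near the all-gene median of 1.84.

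Interferon response genes were lower throughout. For type I interferon, 25 of 25 were lower with a median of -2.53, and 12 remained lower relative to the core, where the median was -0.81. Irf7, the regulator that amplifies the response, read 20.5, 33.4 and 26.6 FPKM in B16F10 and 295, 321 and 650.5 in MC38 (-3.86 ± 0.29, limma adjusted p = 9.47e-06). Ifi44 differed most (-4.11 ± 0.34). The ubiquitin-like Isg15 read 12.4, 30.8 and 12 against 100.1, 114 and 296 FPKM (-3.10 ± 0.45). MC38 library 3 was the highest and B16F10 library 11 the highest of its group, and 20 of the 25 genes were highest in library 11 among the B16F10 libraries.

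Of 18 interferon gamma response genes, 18 were lower with a median of -2.71, and 13 were lower relative to the core with a median of -1.16. Without library 11 the 2 counts were 18 and 16. The transcription factor Irf1 read 19.2, 26.2 and 20.5 against 241, 184 and 217 FPKM (-3.23 ± 0.15, and -1.40 relative to the core). The GTPases Gbp2 (-3.44 ± 0.14), Iigp1 (-3.43 ± 0.17) and Gbp4 (-3.28 ± 0.18), which act against intracellular microbes, moved by similar amounts. Cd274, which encodes PD-L1, read 24.8, 28.8 and 22.9 against 107, 106 and 105 FPKM (-2.02 ± 0.11), and relative to the core its difference was -0.19 (limma adjusted p = 0.499).

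The interferon-stimulated response element was searched on both strands as GAAA, any 2 bases, GAAA. It was present before the start of 8 of 19 type I genes with a promoter in the table (42.1%), of 8 of 13 interferon gamma genes (61.5%) and of 2.65% of all genes. Isg15 and Ifit1 (-2.60 ± 0.35, and -0.83 relative to the core, limma adjusted p = 0.0647) are shown as members with repeated matches in capitals, which overlap in Isg15 and lie on the opposite strand in Ifit1. The same window of Irf7 held no match.
Isg15, chr4:156200819-156201018, minus strand: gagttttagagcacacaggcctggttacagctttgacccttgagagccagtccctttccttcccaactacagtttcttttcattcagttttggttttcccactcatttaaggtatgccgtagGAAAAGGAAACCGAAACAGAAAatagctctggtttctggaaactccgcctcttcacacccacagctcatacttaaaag
Ifit1, chr19:34640689-34640888, plus strand: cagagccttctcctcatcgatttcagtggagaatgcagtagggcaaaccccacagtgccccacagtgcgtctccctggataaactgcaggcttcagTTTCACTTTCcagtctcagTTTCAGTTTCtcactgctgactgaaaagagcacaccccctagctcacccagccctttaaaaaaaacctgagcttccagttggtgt

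**Figure D2:**
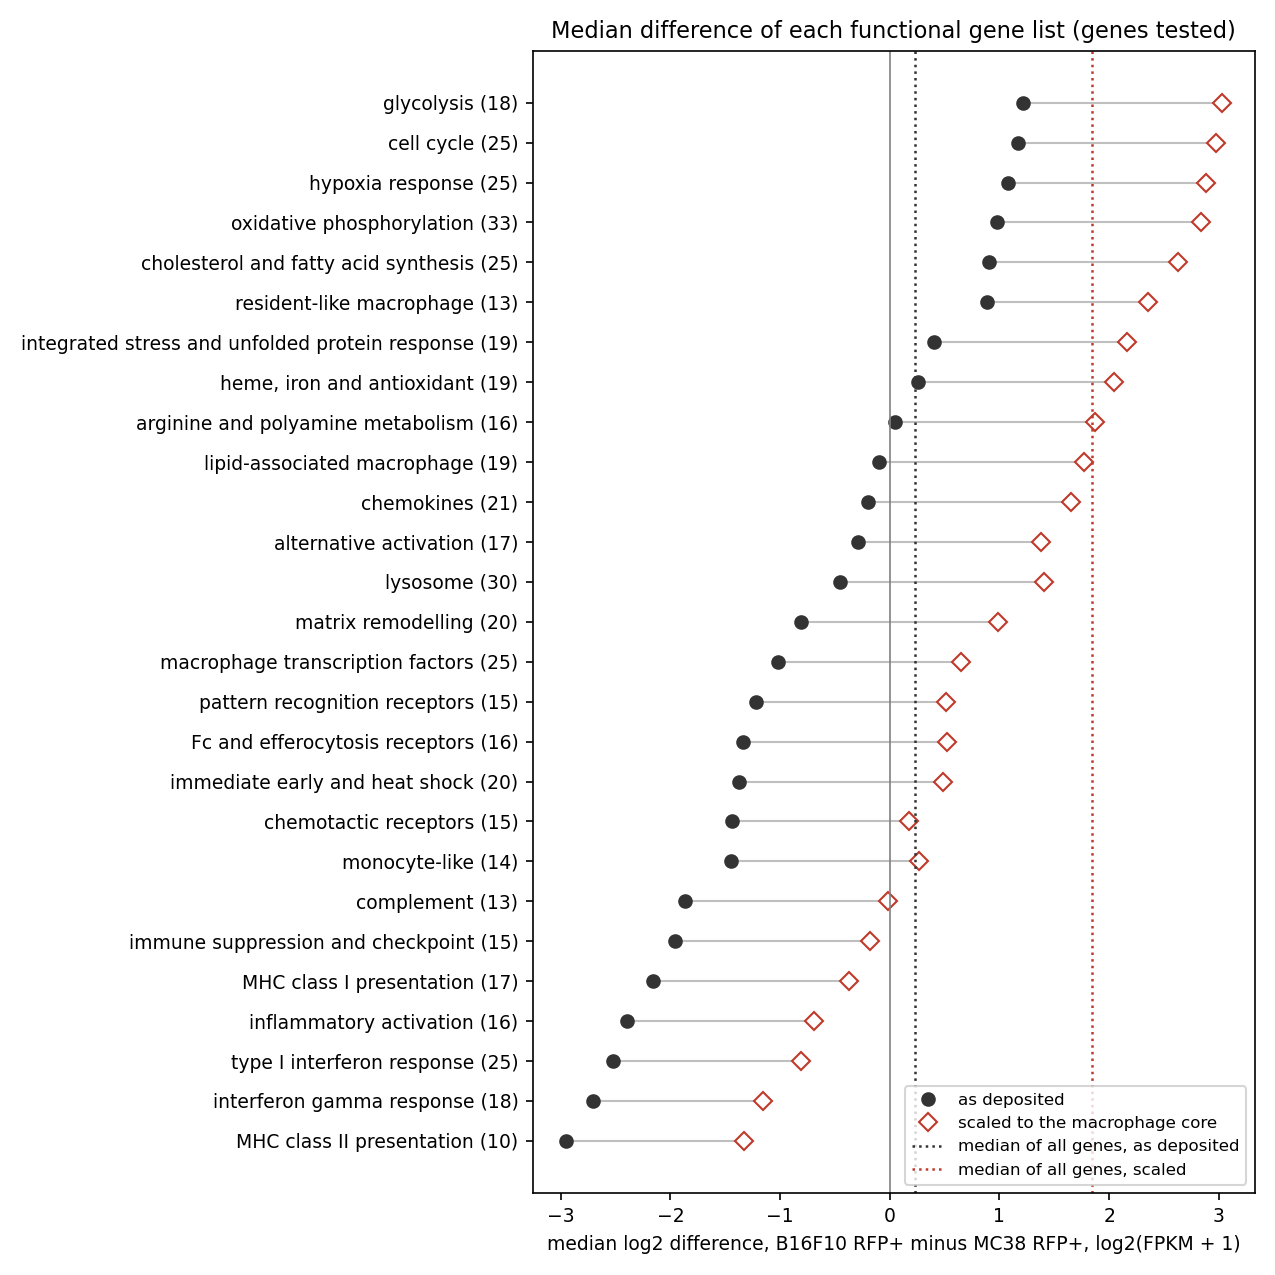
Median log2 difference, B16F10 RFP+ minus MC38 RFP+, of each functional gene list (cell type marker lists are not plotted) with the number of genes tested in brackets, as deposited (circles) and scaled to the macrophage core (diamonds). Dotted lines mark the medians of all genes at 0.23 and 1.84; of the lists plotted MHC class II lies lowest on both scales, at -2.95 and -1.33, and glycolysis highest, at 1.21 and 3.03.

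Chemokines moved in both directions. Of 21 tested, 6 were higher and 9 lower (40.7% and 22.9% of all genes). Their median of -0.20 became 1.66 relative to the core, below the all-gene median of 1.84. Ccl5, which attracts T cells, read 30.2, 31.1 and 12.5 FPKM in B16F10 and 509, 622 and 458 in MC38 (-4.46 ± 0.30, limma adjusted p = 5.3e-06). Cxcl9 (-3.54 ± 0.23) and Cxcl10 (-3.04 ± 0.29), induced by interferon gamma, were lower too, and so was Cxcl16 (-3.38 ± 0.25). Relative to the core these 4 stood at -2.63, -1.82, -1.18 and -1.53. Cxcl14 (-3.73) and Ccl22 (-1.89, and -0.53 relative to the core, limma adjusted p = 0.206) were also lower. So were the neutrophil attractants Cxcl1 (-3.41) and Cxcl2 (-1.50, and 0.36 relative to the core, limma adjusted p = 0.433), whereas their close relative Cxcl3 was higher (2.56). The higher set was Ppbp, Cxcl3, Pf4, Ccl6, Ccl9 and Ccl2. Ccl6 read 1462, 1231 and 2126 against 234, 636 and 204 FPKM (2.32 ± 0.39). Ccl2, the main attractant of monocytes, read 1085, 665 and 1526 against 433, 415 and 853 FPKM, groups that overlap (0.95 ± 0.34, limma adjusted p = 0.036).

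Chemotactic receptor genes, for chemokines and other signals, were mostly lower as deposited. Of 15 chemotactic receptor genes, 13 were lower and 1, Cxcr3, higher (0.74, not called without library 11), with a median of -1.44. Relative to the core 5 were lower and 5 higher, where 3.69% of all genes were lower and 86.3% higher. Cx3cr1, the fractalkine receptor, read 5.61, 2.42 and 2.04 against 80.1, 61.4 and 75.8 FPKM (-4.16 ± 0.28, and -2.50 relative to the core). Ccr2, the receptor for Ccl2, read 13.5, 18.2 and 33.9 against 38.2, 44.3 and 59.8 FPKM, lower as deposited (-1.16 ± 0.30) and at 0.65 relative to the core (limma adjusted p = 0.0652). Among 14 monocyte-like genes, 9 were lower and 1, Hp, higher (1.61), or 2 higher without library 11. Ms4a4c (-3.86) and the shear-induced factor Klf2 (-3.14) led the lower members. Relative to the core 2 of the 14 were lower and 4 higher (3.69% and 86.3% of all genes).

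Inflammatory genes were lower. Of 16 tested, 13 were lower and 1, Saa3, was higher (1.84), with a median of -2.40. Relative to the core 7 were lower and 3 higher (3.69% and 86.3% of all genes), or 11 lower and 2 higher without library 11. Il1b, which encodes the cytokine IL-1 beta, read 79.9, 460.4 and 81.4 FPKM in B16F10 and 1704, 1852 and 3424 in MC38 (-3.93 ± 0.61). Library 11 was the highest B16F10 library, as it was for 12 of the 16 genes. Irg1, which makes itaconate, read 7.89, 17 and 5.04 against 162, 104 and 263 FPKM (-4.06 ± 0.42). The costimulatory gene Cd86 was lower by -3.24 ± 0.17, and -1.41 relative to the core. Nos2, the enzyme that competes with Arg1 for arginine, read 5.34, 7.04 and 6.33 against 12.1, 17.4 and 9.01 FPKM (-0.90 ± 0.23). Its direction turned relative to the core (0.78, limma adjusted p = 0.0272), where the all-gene median was 1.84.

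Immune suppression and checkpoint genes were lower as well, 13 of 15 with a median of -1.96. Relative to the core 4 of the 15 were lower and 4 higher (3.69% and 86.3% of all genes), or 8 lower and 4 higher without library 11. Havcr2, which encodes TIM-3, led (-3.20 ± 0.13, and -1.41 relative to the core). Il10 read 1.95, 6.77 and 0.923 against 10.7, 9.25 and 19 FPKM (-1.92 ± 0.48, and -0.37 relative to the core, limma adjusted p = 0.492). Tgfb1 (-0.90 ± 0.19) turned to 0.33 relative to the core (limma adjusted p = 0.212).

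Pattern recognition and clearance receptors were also mostly lower as deposited. Of 15 pattern recognition genes, 14 were lower, with a median of -1.22 that became 0.51 relative to the core (1.84 over all genes). Tlr2, a receptor for bacterial lipoproteins, read 26.4, 23.6 and 16.9 against 365, 316 and 437 FPKM (-4.02 ± 0.18, and -2.18 relative to the core). Of 16 Fc and efferocytosis receptor genes, 11 were lower and 3 higher, or 5 higher without library 11. Relative to the core 3 of the 16 were lower and 9 higher (3.69% and 86.3% of all genes). The median of -1.34 became 0.53, below the all-gene median of 1.84. Axl, which binds dying cells through Gas6, was lower by -3.37 ± 0.21 and Fcgr4 by -3.08 ± 0.15, and both were lower relative to the core (-1.55 and -1.23). The members higher as deposited were Cd36 (1.57), Itgb3 (1.39) and Scarb1 (0.96).

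Complement genes were lower in 12 of 13 with a median of -1.86, which was -0.02 relative to the core. C1qa, a macrophage marker and recognition subunit, read 752, 313 and 483 against 2138, 2143 and 2401 FPKM (-2.20 ± 0.26, and -0.33 relative to the core). Cfb, of the alternative pathway, was lower on both scales (-4.44 ± 0.21 and -2.61), as was C3 (-3.52 ± 0.18 and -1.80). C2 alone was higher (3.74 ± 0.31), and since it neighbours Cfb the counting could assign reads of either gene to the other.

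Among macrophage transcription factors, 18 of 25 were lower and 2, Bhlhe40 (1.35) and Bhlhe41 (2.0), higher. Of 20 immediate early and heat shock genes, tested as 1 list, 18 were lower, with Fosb (-3.17) and Egr1 (-2.87) leading. Both medians turned positive relative to the core, from -1.02 to 0.65 and from -1.38 to 0.48. They stayed below the all-gene median of 1.84.

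A set of macrophage genes was higher in B16F10 RFP+ cells as deposited, unlike the core. Arg1 (chr10:24915221-24927484, GENCODE M21 on GRCm38), the reporter gene, read 615, 642 and 916 FPKM in B16F10 and 471, 553 and 394 in MC38. The groups did not overlap, and the difference was 0.60 ± 0.17 (limma adjusted p = 0.0147). It was 0.48 without MC38 library 3 (limma adjusted p = 0.0568). The limma adjusted p was 0.0514 with a replicate block over all 12 libraries, 0.072 without the block and 0.0587 with no filter on low values. As a ratio to the core level of the same library, Arg1 was 3.00, 5.12 and 4.84 against 0.776, 0.916 and 0.604. Relative to the core its difference was 2.47, beside a median of 1.84 over all genes, of which 86.3% were higher. In the RFP- libraries it read 62.8, 56.2 and 125 FPKM for B16F10 and 56, 58.5 and 40.6 for MC38 and was below every RFP+ library.

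Spp1, the matrix-binding cytokine osteopontin, was the most abundant of these, at 4238, 2671 and 4154 FPKM in B16F10 and 422, 783 and 433 in MC38 (2.78 ± 0.26, limma adjusted p = 3.09e-05). Its ratio to the core was 20.7, 21.3 and 22 against 0.694, 1.3 and 0.664, nearly even across the B16F10 libraries. Pf4 read 1493, 1206 and 2129 against 249, 433 and 283 FPKM (2.32 ± 0.24), and its ratio to the core was 7.29, 9.62 and 11.3 against 0.409, 0.717 and 0.433. Ppbp (chr5:90768518-90770063), the chemokine gene beside Pf4 (chr5:90772435-90773383), read 46.9, 162 and 119 against 1.23, 3.16 and 0.0139 FPKM (5.54 ± 0.55). Both are known from platelets, and none of the 10 platelet markers reached the filter. Their sum was 0.303 to 3.54 FPKM in B16F10 and 0.647 to 0.915 in MC38. Hmox1, which breaks down heme, read 1039.7, 553 and 792 against 227, 183 and 147 FPKM (2.07 ± 0.23), and its ratio to the core was 5.08, 4.41 and 4.19 against 0.374, 0.303 and 0.225. Relative to the core Spp1, Pf4 and Hmox1 stood at 4.65, 4.18 and 3.93, beside the all-gene median of 1.84.

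**Figure D3:**
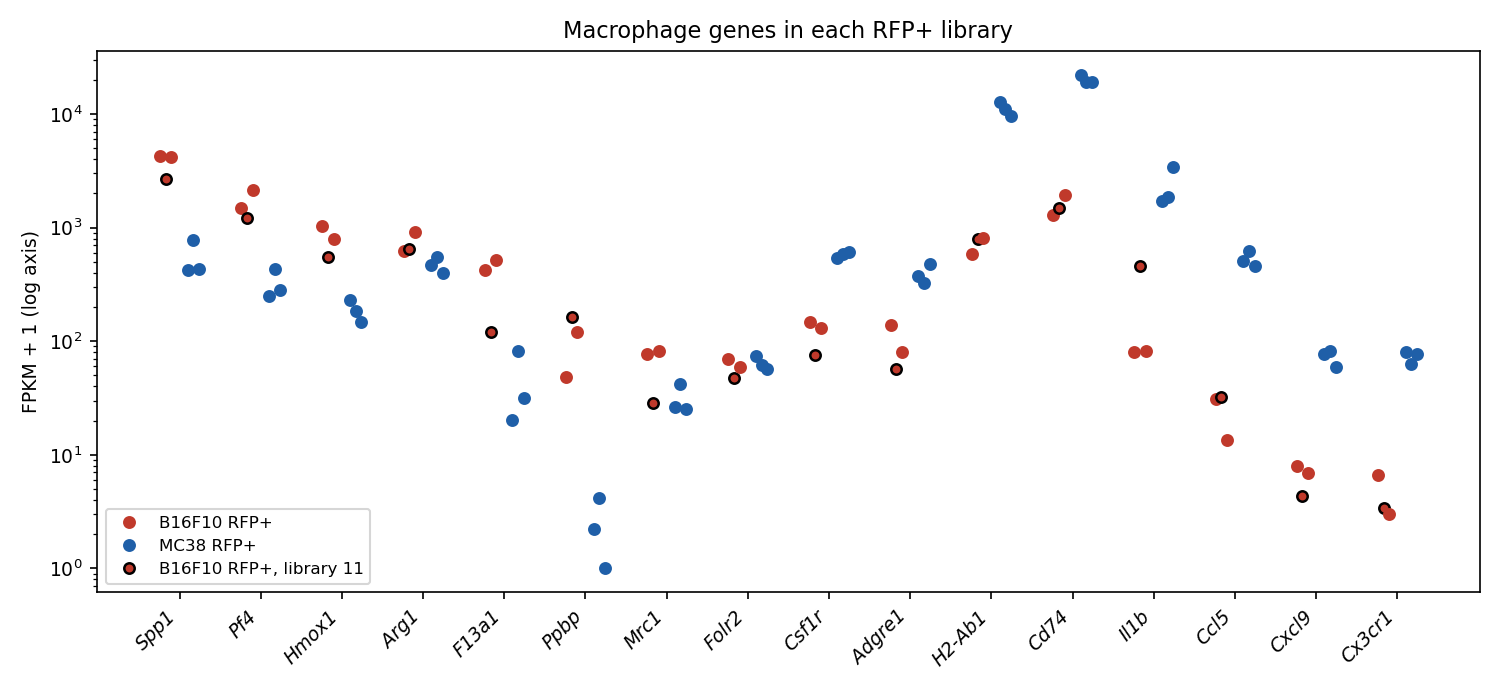
FPKM + 1 of 16 macrophage genes in each RFP+ library on a log axis, B16F10 in red and MC38 in blue, with black rings on B16F10 library 11. Spp1, Pf4, Hmox1, Arg1, F13a1 and Ppbp lie above MC38 in all 3 B16F10 libraries, Mrc1 and Folr2 overlap, and Csf1r to Cx3cr1 lie below.

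Resident-like macrophage genes were the macrophage list with the highest median, 0.89. Of 13 tested, 4 were higher and 0 lower, where 40.7% of all genes were higher and 22.9% lower. Without library 11 the count of higher genes was 8. The 4 were F13a1 (3.00 ± 0.61), a transglutaminase of the clotting system, Pf4, Cbr2 (1.90 ± 0.44) and the growth factor gene Igf1 (1.70 ± 0.40). F13a1 read 422, 120.2 and 521 against 19.1, 81.5 and 30.7 FPKM, and 12 of the 13 genes were lowest in library 11. Mrc1, the mannose receptor gene, read 75.9, 27.8 and 80.2 against 25.3, 41.2 and 24.4 FPKM, groups that overlap (0.89 ± 0.38, limma adjusted p = 0.0679). Without library 11 it passed (1.38, limma adjusted p = 0.000914), and so it did without MC38 library 2 (1.13, limma adjusted p = 0.0498), with array weights (0.00895) and with the replicate block (0.0387). Folr2, the folate receptor gene, read 68.9, 45.9 and 58.8 against 72.7, 60.5 and 55.3 FPKM (-0.13 ± 0.16, limma adjusted p = 0.521). Relative to the core all 13 were higher, with a median of 2.36, where 86.3% of all genes were.

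Lipid-associated macrophage genes divided. Of 19, 8 were higher and 6 lower (40.7% and 22.9% of all genes), with a median of -0.10. Among the higher members Lpl, a lipase, read 85.8, 32.5 and 81.4 against 10.7, 11.2 and 4.73 FPKM (2.73 ± 0.40), and the fatty acid carriers and receptor Fabp4 (2.52 ± 0.23), Fabp5 (2.26 ± 0.21) and Cd36 (1.57 ± 0.16) were higher too. Among the lower members the apolipoprotein gene Apoe read 5411, 2713 and 3001 against 20989.5, 21369.7 and 27241 FPKM (-2.70 ± 0.25), and Apoc2 (-2.53), Abca1 (-2.05), Abcg1 (-1.71) and the receptor gene Nr1h3 (-2.11) went the same way. Apoe and Apoc2 were also lower relative to the core (-0.84 and -0.68). Abca1 (-0.29), Nr1h3 (-0.38) and Abcg1 (0.03) were not called there (limma adjusted p = 0.386, 0.189 and 0.925). Trem2, a lipid receptor gene, was lower as deposited (-1.40 ± 0.27) and at 0.45 relative to the core (limma adjusted p = 0.082). Gpnmb had the largest difference (1895, 2337 and 1453 against 41.5, 66 and 60.0 FPKM, 5.06 ± 0.21). It is also a melanosome gene and, like the pigment genes, was highest in library 11.

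Alternative activation genes were 3 higher and 8 lower of 17 (40.7% and 22.9% of all genes). Clec10a was higher (2.08 ± 0.41), whereas the transglutaminase gene Tgm2 read 32.5, 31.1 and 22.4 against 346, 477 and 369 FPKM (-3.75 ± 0.17, and -1.91 relative to the core). Retnla varied within both groups, at 11.8, 30.6 and 7.63 against 165, 780.2 and 36.1 FPKM (-3.48 ± 0.95, limma adjusted p = 0.0112, 0.0622 in the 12-library fit with no block and 0.0592 with no filter), and relative to the core it stood at -1.67 (limma adjusted p = 0.0529). Of 20 matrix remodelling genes, 3 were higher and 12 lower (40.7% and 22.9% of all genes). Mmp8 (3.06 ± 0.35), Timp3 (2.77 ± 0.20) and the elastase gene Mmp12 (1.35 ± 0.19) were higher, and Tgfbi (-2.68 ± 0.13) and Fn1 (-1.01 ± 0.24) lower. Relative to the core Fn1 was higher (0.84, limma adjusted p = 0.00586) but below the all-gene median of 1.84. Mmp8 is also a neutrophil marker, and neutrophil genes were higher in 5 of 6, S100a9 (4.09) among them. Lysosome genes were 5 higher and 15 lower of 30 (40.7% and 22.9% of all genes). Their median of -0.45 became 1.41 relative to the core, below the all-gene median of 1.84. Ctss (-2.66) and Ctsc (-2.41) were lower, and the collagen-cleaving Ctsk was higher (2.12).

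Genes of energy metabolism and growth, which tumour cells and macrophages both use, were higher in B16F10. All 33 oxidative phosphorylation genes were higher (40.7% of all genes) with a median of 0.98. The complex IV subunit gene Ndufa4 read 1859.5, 2045 and 1759 against 166, 129 and 177 FPKM (3.59 ± 0.13), and Cyc1 was higher by 1.96 ± 0.08. Of 18 glycolysis genes, 15 were higher and 2 lower, with a median of 1.21. Pgk1 read 1462, 1764 and 1278 against 416, 418 and 388 FPKM (1.87 ± 0.12), and the lactate exporter gene Slc16a3 was lower (-1.62 ± 0.15, and 0.23 relative to the core, limma adjusted p = 0.341). Of 25 hypoxia response genes, 19 were higher and 4 lower with a median of 1.08. Car9, a carbonic anhydrase of hypoxic tumours, read 73.7, 189.5 and 94.5 against 5.73, 5.03 and 5.78 FPKM (4.09 ± 0.30). Vegfa, the vessel growth factor gene, went the other way, at 60.9, 93.7 and 60.2 against 222, 257 and 201 FPKM (-1.67 ± 0.18), and stood at 0.18 relative to the core (limma adjusted p = 0.583). Library 11, with the highest pigment sum, was the highest B16F10 library for 15 of the 18 glycolysis, 19 of the 25 hypoxia and 21 of the 33 oxidative phosphorylation genes, and for 38.6% of all genes tested. The part of tumour RNA in these lists was not tested.

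Cell cycle genes were higher in 24 of 25 with a median of 1.17, led by Mcm2 (2.48 ± 0.12), which encodes a replication helicase subunit, and Rrm2 (2.05 ± 0.12). Unlike the lists above, library 11 was the lowest B16F10 library for 14 of these 25 and the highest for 7, against 36.8% and 38.6% of all genes. Cholesterol and fatty acid synthesis genes were higher in 23 of 25 with a median of 0.91, led by Scd2 (2.71 ± 0.12), Sqle (1.97 ± 0.18) and Fasn (1.94 ± 0.20). Of 19 integrated stress and unfolded protein response genes, 9 were higher and 5 lower (40.7% and 22.9% of all genes). Trib3 (2.25) and Asns (1.84) led the higher members. Of 19 heme, iron and antioxidant genes, 6 were higher and 5 lower (40.7% and 22.9% of all genes). The transferrin receptor gene Tfrc was higher (2.62 ± 0.14), as was the iron exporter gene Slc40a1 (2.49 ± 0.62), which read 71.2, 9.76 and 23.6 against 4.72, 5.81 and 1.74 FPKM. Of 16 arginine and polyamine genes, 5 were higher and 6 lower (40.7% and 22.9% of all genes). The arginine importer gene Slc7a1 was higher (1.92 ± 0.16), and Arg2 (-2.18 ± 0.38) and the citrulline-using Ass1 (-3.23 ± 0.21) were lower. Relative to the core Arg2 stood at -0.57 (limma adjusted p = 0.243) and Ass1 at -1.89 (limma adjusted p = 4.88e-06).

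Markers of other cells were summed in each library. The 16 epithelial genes summed to 3.07 to 5.04 FPKM in B16F10 RFP+ libraries and 7.83 to 12.8 in MC38, and Krt19, Krt20, Cldn3, Cdx2 and Elf3 were at 0 in all 6. Of 3 epithelial genes tested, 1 was higher, Vil1 (1.12), and 1 lower, Cdh1, with a median of 0.58. Cdh1 had the largest difference (0.562, 1.15 and 1.27 against 10.6, 11.7 and 6.11 FPKM, -2.36 ± 0.26). The 12 fibroblast genes summed to 97.0 to 183 and 107 to 126 FPKM, with Sparc higher in B16F10 (1.86 ± 0.21) and Dcn, Col3a1 and Col6a1 (-4.22) lower. The 10 neutrophil genes found in the files summed to 50.2 to 366 and 44.0 to 50.2 FPKM. S100a8 read 32.1, 7.37 and 183 against 4.45, 6.09 and 1.34 FPKM (3.05 ± 0.95, limma adjusted p = 0.0204) and was highest in B16F10 library 3, but missed the threshold without MC38 library 3 (limma adjusted p = 0.0747), in the 12-library fit with no block (0.0692) and with no filter (0.0865). Its difference was 1.89 without B16F10 library 3. The neutrophil genes were 5 higher and 1 lower of 6 tested, and Elane was at 0 in all 6 libraries. The 9 T cell genes summed to 14.7 to 24.7 and 24.8 to 49.8 FPKM, the 7 B cell genes to 8.51 to 13.6 and 20.8 to 26.6, and the 8 natural killer cell genes to 1.84 to 3.61 and 4.08 to 6.55. The 13 dendritic cell genes summed to 17.6 to 23.8 and 34.7 to 60.2 FPKM, with 4 of 8 tested lower and 1, Zbtb46, higher (0.65, not called without library 11). The 10 endothelial genes summed to 29.1 to 31.9 and 22.4 to 29.5 FPKM, with Pecam1 lower (-2.35) and Eng higher (1.16). Of 6 mast cell and basophil genes, Cpa3, Ms4a2, Mcpt8 and Prss34 were at 0 in all 6. The part of these cells in the results was not tested.

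RFP- cells showed a tumour difference of similar extent. Their difference was fitted over all 12 libraries, on the genes kept in the RFP+ libraries. In RFP- cells 4289 genes (38.1%) were higher in B16F10 and 2497 (22.2%) lower. The same 12-library fit gave 4014 higher and 2275 lower in RFP+ cells. Of the genes called in RFP+ cells by the 6-library fit, 82.9% were called in the same direction in RFP- cells. Across the 11263 genes the 2 sets of differences correlated at 0.954, over genes that are not independent replicates and with libraries paired by number within a tumour. The medians in RFP+ and RFP- cells were -2.95 and -2.44 for MHC class II and -2.53 and -2.88 for type I interferon. They were 6.19 and 6.61 for pigment cell genes, -0.20 and -0.54 for chemokines and 0.89 and 0.27 for resident-like macrophage genes. Within class II, H2-Ab1 stood at -3.94 in RFP+ and -2.87 in RFP- cells. A test of the difference between gates called 0 genes with limma (434 at an unadjusted p under 0.05). With library number as a block it called 3 (0.0266%): Ppbp, Ctsl and Ass1.

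Ppbp read 1.97, 3.84 and 11.9 FPKM in B16F10 RFP- libraries and 1.66, 1.29 and 0.143 in MC38 RFP- libraries, so its difference was 1.58 there and 5.54 in RFP+ cells. Ctsl, a lysosomal protease gene, read 296, 296 and 341 against 232, 292 and 210.0 FPKM in RFP+ cells and 92.2, 85.6 and 100.1 against 166, 189 and 131 in RFP- cells, a difference of 0.35 in RFP+ and -0.78 in RFP- cells. The RFP+ difference passed the threshold (limma adjusted p = 0.04) but missed it without B16F10 library 12 (0.0625) or 3 (0.129), without MC38 library 1 (0.114) or 3 (0.135), and with quantile normalization (0.0823), no filter (0.0944), pigment and very abundant genes left out (0.12) or all 12 libraries (0.0755). Ass1, which recycles citrulline to arginine, read 1.41, 0.471 and 0.982 against 16.4, 19.2 and 15.6 FPKM in RFP+ cells and 7.71, 3.39 and 5.31 against 15.7, 18 and 12.3 in RFP- cells. Its difference was -3.23 in RFP+ and -1.38 in RFP- cells. Without the block the smallest unadjusted p-values belonged to Ctsl, Ass1, Syngr1 and Hexim2, none past the threshold (limma adjusted p = 0.846 for Ctsl).

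**Figure D4:**
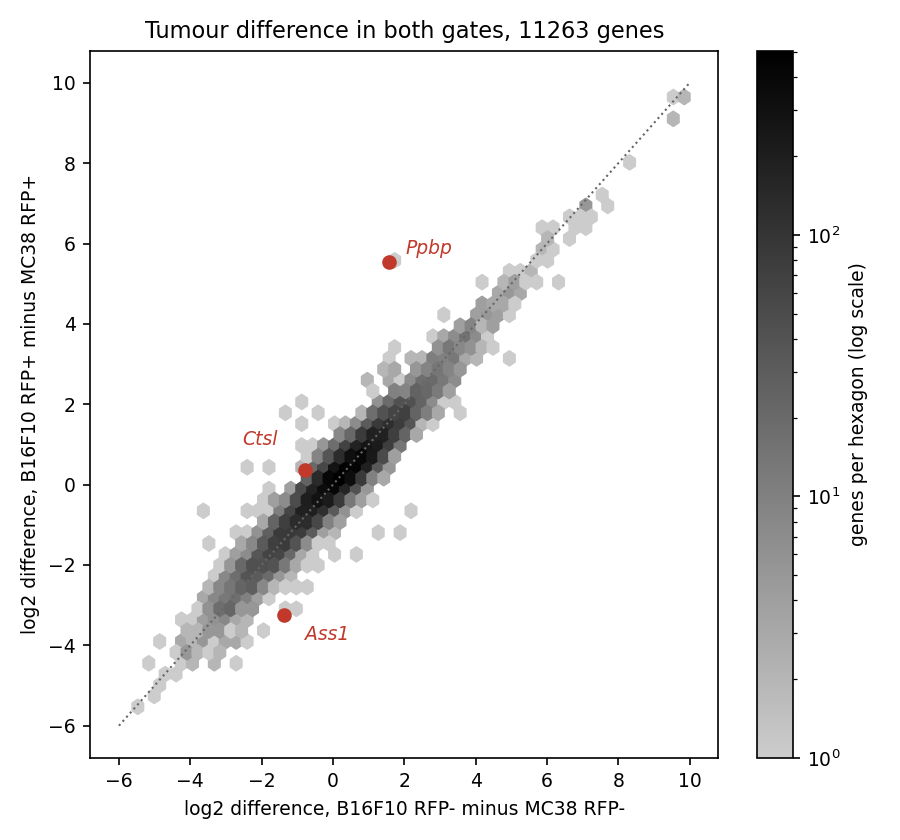
Log2 difference, B16F10 minus MC38, in RFP+ cells (vertical) against RFP- cells (horizontal) for 11263 genes, shaded by genes per hexagon on a log scale, with a dotted line of equality. Ppbp and Ctsl lie above the line and Ass1 below it, at 5.54, 0.35 and -3.23 in RFP+ cells.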

How the data were processed

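The authors deposited 1 table of gene symbols and FPKM values per library, the unit per the file headers. Total RNA was extracted with TRI Reagent, cDNA made with the SMART-Seq HT kit and libraries with Nextera XT, per the labels' protocols. TopHat2 2.1.1, Bowtie2 2.2.8, SAMtools 0.1.18, Cuffdiff 2.2.1 and the build mm10 are named in the submitters' processing notes. The sources used here do not give the annotation, strand setting or scaling, and no counts were used, so depth is known only relatively, from the smallest steps of values under 0.3 FPKM.

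Genes with at least 1 FPKM in 3 or more of the 6 RFP+ libraries were kept, and log2(FPKM + 1) was fitted with limma 3.58.1 in R 4.3.3 (trended variance, 3 libraries against 3, 4 residual degrees of freedom, Benjamini-Hochberg over 11263 genes). The difference between gates was fitted over all 12 libraries. Same-numbered RFP+ and RFP- libraries of a tumour deviated together from their group means (correlation 0.247 to 0.462, against -0.316 to 0.0304 for other pairs), so the number was taken as a pairing. Deviations from a group mean cancel out, so a positive correlation in same-numbered pairs by itself lowers that of other pairs. No 2 libraries were identical. On data simulated for this comparison (11263 genes, 200 changed), 65% of changes of 1 and 97% of changes of 2 on the log2 scale were recovered. The simulation had independent noise and no shared offset, whereas 63.5% of genes were called in the data. These recovery rates therefore hold for that setting only.

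Named genes were the 12 largest differences in each direction (adjusted p under 0.05, mean of at least 5 FPKM in the higher group, groups not overlapping, no predicted or small RNA genes), 25 fixed genes, up to 4 called members of each list, and the leading genes of the test between gates. Other members were named after their values were seen, and some genes are not reported here. The comparison, members and lists were chosen with earlier results of these data known. Promoters are RefSeq, GRCm38.p6. Figures used matplotlib.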

Additional observations from a re-analysis of the deposited data

Results flagged for a closer look

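The tumour difference of 3 genes differed between RFP+ and RFP- cells in limma with library number as a block. For Ppbp the B16F10 minus MC38 difference was larger in RFP+ cells by 3.96 on the log2 scale (limma adjusted p = 0.0353). Its RFP+ value was above the RFP- value in 3 of 3 B16F10 pairs, and the MC38 pairs went in both directions. For Ctsl it was larger in RFP+ cells by 1.14 (limma adjusted p = 0.0386), and the RFP+ value exceeded the RFP- value in 3 of 3 B16F10 pairs and 3 of 3 MC38 pairs. For Ass1 it was more negative in RFP+ cells, with a value of -1.86 (limma adjusted p = 0.0386). Its RFP+ value was below the RFP- value in 3 of 3 B16F10 pairs and above it in every MC38 pair. Without the block none passed, with adjusted p-values of 0.885, 0.846 and 0.846.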

How the results depend on the processing

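As deposited, 4579 genes were higher and 2575 lower. Leaving out each library gave 4112 to 4403 and 2299 to 2479, and the 12-library fit with a replicate block gave 3988 and 2277. Other pseudocounts, filters, quantile and upper-quartile scaling, array weights and leaving out pigment and very abundant genes stayed within 1.5 times. Scaling to the core gave 9717 and 416 (9470 to 9783 and 337 to 581 with each library left out), scaling to Ptprc, Laptm5, Coro1a and Itgb2, chosen after seeing the data, 10052 and 306, and testing against a log2 difference of 1 gave 934 and 749. The difference between gates called 0 genes, 2 larger and 1 smaller with the replicate block, and 0 to 1 larger and 0 smaller with each library left out. The 1 was Snora68, without B16F10 RFP- library 11.

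Among 162 named genes, 10 changed direction with core scaling, 16 with the 4-gene scaling and 1 without a library. Core and 4-gene scaling gave Nos2 0.78 and 1.03, Ccr2 0.65 and 0.92, Vegfa 0.18 and 0.46, Tgfb1 0.33 and 0.52, Folr2 1.71 and 1.99, Il7r 0.91 and 1.18, Fscn1 0.055 and 0.25, Batf3 0.65 and 0.90, Slc16a3 0.23 and 0.51, and Sat1 0.48 and 0.76. The 4-gene scaling also turned Cd274 to 0.085, Itgam to 0.26, S100a6 to 0.11, Slc11a1 to 0.26, Tlr8 to 0.069 and Fcgr1 to 0.069. Folr2 ranged from -0.26 to 0.028 with each library left out, and was above 0 without B16F10 library 11. Of 972 pairs of a named gene and a left-out library, 11 lost and 3 gained a call. The medians of 15 lists changed sign with core scaling and of 18 with the 4-gene scaling. The block made no other call change among named genes than those of Arg1, Mrc1 and Ctsl (limma adjusted p = 0.0595 for Ctsl). The B16F10 libraries' lower depth limits low genes there. The cause of these changes was not tested.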
